A study of Homo sapiens with 12 samples.

Results

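The transcriptional response that IN10018 adds to doxorubicin was read from SK-OV-3 cells, an established human ovarian cancer line. Combination cells had been kept for 24 h with IN10018 at 3 μM plus doxorubicin at 300 nM, and doxorubicin cells for 24 h with doxorubicin at 300 nM. The 3 combination and the 3 doxorubicin libraries are 6 of the 12 RNA-seq libraries of the study, and the other libraries, 3 from cells kept with IN10018 alone at 3 μM and 3 from cells kept with DMSO, both for 24 h, are used only to show the effect of IN10018 in the absence of doxorubicin. Doxorubicin is an anthracycline that intercalates into DNA and traps topoisomerase II on it. IN10018 is an inhibitor of focal adhesion kinase (FAK), the tyrosine kinase encoded by PTK2. All groups come from a single cultured line, so no stromal or immune cells of a tumour are represented. Levels are given as FPKM, fragments per kilobase of transcript scaled to the size of the library. Of 59391 gene symbols in the data, 10457 reached at least 1 FPKM in at least 3 of these 6 libraries and were compared on the log2(FPKM + 1) scale, on which a difference understates the change of a gene near or below 1 FPKM.

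The libraries held between 9864751 and 12901505 reads in the combination group and between 11441227 and 12303233 in the doxorubicin group. Keratins and ERBB2 were abundant among the carcinoma markers, with KRT7 at 141, 368 and 246 FPKM in combination cells and 301, 222 and 278 FPKM in doxorubicin cells, and the 8 listed carcinoma genes summed to 351 to 770 FPKM in combination cells against 442 to 577 FPKM in doxorubicin cells. EPCAM, PAX8 and MUC1, also carcinoma markers, were low, at 0.774 to 7.64 FPKM in combination cells and 0.963 to 5.54 FPKM in doxorubicin cells. Fibroblast markers summed to 9.34 to 11.6 FPKM in combination cells against 6.81 to 8.66 FPKM in doxorubicin cells, mostly from LUM, and mesothelial markers to 3.25 to 8.93 FPKM against 4.998 to 5.66 FPKM, mostly from MSLN. Of 6 leukocyte markers, CD68 and MS4A1 were at 0 in all 6 libraries and only LYZ exceeded 1 FPKM in at least 3, while CDH5, an endothelial marker, was at 0 throughout. Combination replicate 1 stood apart from the other libraries. Small RNA genes took 40.7% of its FPKM, against 22.9% and 27.3% in the other combination libraries and 22.9% to 26.1% in the doxorubicin libraries. Relative to the mean of their group, genes rich in G and C were low in combination replicate 1 and high in combination replicate 2, with correlations across genes of -0.653 and 0.626 between the deviation and GC content, whereas the correlations in the other 4 libraries lay between -0.229 and 0.166. These correlations are across genes, which are not independent replicates. The chi-square statistic per degree of freedom between reads of replicate libraries was 29.2 to 87.3 within the combination group and 7.33 to 11.8 within the doxorubicin group. The combination arm was thus the noisier of the groups, and values without combination replicate 1 are given beside results that moved with it.

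**Figure D1:**
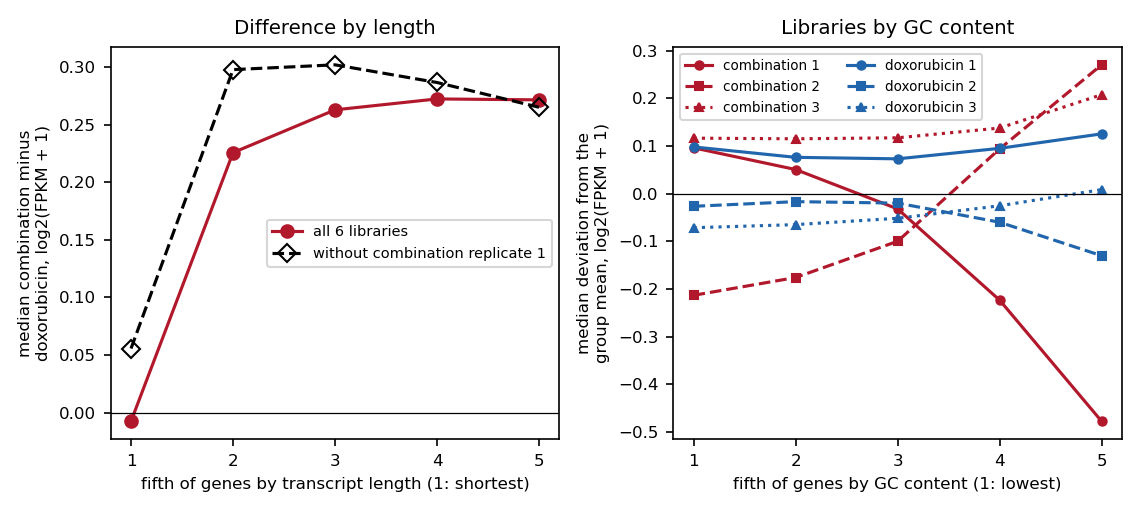
Left, the median difference between combination and doxorubicin, in log2(FPKM + 1), for genes in 5 equal bins of transcript length, with all 6 libraries (circles) and without combination replicate 1 (diamonds). Right, the median deviation of each library from the mean of its group, in log2(FPKM + 1), for genes in 5 equal bins of GC content, where combination replicates 1 and 2 run in opposite directions and reach -0.48 and 0.27 in the bin of highest GC content.

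Most genes stood a little higher in combination cells, and this shift is the level against which every gene is read. The median difference over the 10457 genes was 0.24 on the log2 scale, 8540 genes (81.7%) had a higher mean in combination cells, and the 5th to 95th percentile of the differences ran from -0.37 to 0.58. The shift was absent from short genes: of 5 equal bins of transcript length, the shortest, up to 2047 nucleotides, had a median difference of -0.01, and the others had medians of 0.23 to 0.27. It was 0.26 without combination replicate 1, 0.27 without combination replicate 2, 0.17 without combination replicate 3 and 0.00 after median-ratio scaling, which sets the typical gene to no change. FPKM are shares of a library and carry no external standard, so a rise of most genes and a fall of a few abundant ones cannot be told apart.

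With limma, a linear model that shares information on variance across genes, 8 genes (0.0765% of those tested) passed a Benjamini-Hochberg adjusted p of 0.05, 4 higher and 4 lower in combination cells. The higher ones were SCD, INSIG1, AKAP14 and an unprocessed pseudogene, and the lower ones were a small nuclear RNA, a small nucleolar RNA and 2 processed pseudogenes. Reads of small RNA genes and pseudogenes may belong to near-identical copies, so they are counted here and not named. At an unadjusted p under 0.05 there were 2028 higher genes (19.4%) and 292 lower genes (2.79%). All 3 combination libraries lay above all 3 doxorubicin libraries in 2650 genes (25.3%) and below them in 337 genes (3.22%). Such a separation is the most extreme outcome that 3 against 3 libraries allow, and an exact two-sided permutation test of it cannot go below p = 0.10. The number of calls turned on combination replicate 1: without it 2578 genes passed (24.7%), 2232 of them higher and 346 lower, and all 8 genes were among them. Without combination replicate 2 the count was 1, without combination replicate 3 it was 0, and without doxorubicin replicate 3 it was 4. A fit over all 12 libraries called 4 genes, all among the 8, and limma-voom on reads recovered from the FPKM called 6, among them SCD, INSIG1, ADGRG1, CA12 and SREBF1. Neither the labels nor the paper say that the 3 libraries of a group were grown as separate cultures. The p-values therefore describe the spread between libraries, which may be technical.

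The clearest response lay in the sterol and fatty acid genes. Cells sense cholesterol in the membrane of the endoplasmic reticulum: when it is scarce, SCAP escorts the transcription factors SREBP-1 and SREBP-2 (encoded by SREBF1 and SREBF2) to the Golgi, where they are cleaved, and the released fragments enter the nucleus and switch on genes of cholesterol synthesis, cholesterol uptake and fatty acid synthesis. INSIG proteins hold the SCAP complex back when sterols are plentiful, and INSIG1 is itself a target of the pathway.

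SCD, the stearoyl-CoA desaturase that makes monounsaturated fatty acids (ENSG00000099194, hg38 chr10:100347124-100364834), had the smallest adjusted p of the protein-coding genes. It stood at 22.4, 20.1 and 26.6 FPKM in combination cells, against 7.88, 6.89 and 5.44 FPKM in doxorubicin cells. Every combination library was thus above every doxorubicin library, and the combination libraries that differed most in GC content lay close together. The mean was 23.0 ± 3.3 FPKM in combination cells and 6.74 ± 1.23 FPKM in doxorubicin cells (SD, n = 3 each), a 3.42-fold ratio, and SCD rose by 1.64 on the log2 scale (SE 0.19, limma adjusted p = 0.0195). SCD rested on 351 to 1799 reads per library. SCD was called in 10 of 17 alternatives, with log2 differences of 1.36 to 1.78 and limma adjusted p-values of 3.69e-07 to 0.450. Its adjusted p was 0.0684 without combination replicate 2, 0.222 without combination replicate 3, 0.0814 without doxorubicin replicate 3, 0.450 with no filter, 0.050003 with a filter of 5 FPKM, 0.0677 after median-ratio scaling and 0.0707 after quantile normalization.

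INSIG1 (ENSG00000186480, hg38 chr7:155297776-155310235) stood at 3.25, 2.87 and 4.08 FPKM in combination cells, against 0.766, 0.869 and 1.00 FPKM in doxorubicin cells, from 117 to 192 reads against 32 to 45 reads. It rose by 1.22 on the log2 scale (SE 0.15, limma adjusted p = 0.0229), and the groups did not overlap. Its adjusted p was between 0.0513 and 0.222 when any library other than combination replicate 1 was left out, and 1.65e-05 without combination replicate 1. SREBF1 stood at 3.47, 5.74 and 5.90 FPKM in combination cells, against 2.11, 1.91 and 1.48 FPKM in doxorubicin cells, with a difference of 1.07 (SE 0.20, limma adjusted p = 0.127, and 1.64e-05 without combination replicate 1). SREBF2 stood at 7.24, 9.78 and 13.03 FPKM in combination cells, against 5.68, 4.86 and 3.98 FPKM in doxorubicin cells, with a difference of 0.89 (limma adjusted p = 0.180). For all of these genes the lowest combination library exceeded the highest doxorubicin library. SCAP, the escort protein, overlapped between the groups, with 4.50, 11.3 and 10.5 FPKM in combination cells and 7.63, 4.86 and 5.45 FPKM in doxorubicin cells, a difference of 0.41 (0.78 without combination replicate 1).

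The promoters of 3 of these genes are shown because they belong to the SREBP circuit and carry letters that such promoters are known for. Each line gives the 250 bases before the RefSeq start (GRCh38.p14, plus strand), for SCD at chr10:100346983-100347232, for INSIG1 at chr7:155297628-155297877 and for SREBF2 at chr22:41832855-41833104. The gene coordinates given above for SCD and INSIG1 begin inside these windows, so part of each window lies within the gene as placed there. Positions of motifs are counted from the RefSeq start. Capitals mark TCANNCCAC, a pattern that covers the core of a known sterol regulatory element, and CCAAT, the box bound by NF-Y, a factor that works beside SREBPs, each searched on both strands, so that a CCAAT box on the minus strand reads ATTGG. The motifs share no base in these windows.
SCD: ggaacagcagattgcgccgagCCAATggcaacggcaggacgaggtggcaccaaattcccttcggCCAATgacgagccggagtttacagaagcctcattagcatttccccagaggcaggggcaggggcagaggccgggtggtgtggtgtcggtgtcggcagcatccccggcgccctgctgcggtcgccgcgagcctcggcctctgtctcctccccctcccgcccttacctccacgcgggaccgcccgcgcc
INSIG1: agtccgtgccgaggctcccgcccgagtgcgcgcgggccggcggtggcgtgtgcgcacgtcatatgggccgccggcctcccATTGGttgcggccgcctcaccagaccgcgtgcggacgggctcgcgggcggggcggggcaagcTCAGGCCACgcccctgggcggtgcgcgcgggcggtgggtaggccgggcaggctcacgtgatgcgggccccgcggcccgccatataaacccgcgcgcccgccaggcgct
SREBF2: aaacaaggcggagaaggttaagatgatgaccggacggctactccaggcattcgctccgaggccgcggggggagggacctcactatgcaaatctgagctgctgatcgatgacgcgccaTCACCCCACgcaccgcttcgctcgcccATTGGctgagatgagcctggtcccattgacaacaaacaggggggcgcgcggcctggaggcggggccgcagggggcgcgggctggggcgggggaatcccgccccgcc
INSIG1 held TCAGGCCAC from base 108 to base 100 before the start and SREBF2 held TCACCCCAC from base 133 to base 125, both on the plus strand. SCD held CCAAT at bases 229 to 225 and 186 to 182 on the plus strand, and no TCANNCCAC in this window. SREBF1 and SCAP, which are not shown, held 0 TCANNCCAC and 0 CCAAT in the window searched for each. Over 35116 RefSeq promoter windows of this length, from 27305 genes, 3.14% held TCANNCCAC and 32.0% held CCAAT. Over the 10947 windows of 7646 tested genes the shares were 2.42% and 33.4%. These shares count windows, of which a gene may have several, whereas the counts that follow are of genes. Of the 49 tested genes in the 3 lists described next, 39 had a window. Of these, 5 (12.8%) held TCANNCCAC and 24 (61.5%) held CCAAT. The lists differed: TCANNCCAC was held by 0 of 12 cholesterol synthesis genes, 2 of 12 sterol sensing genes and 3 of 15 fatty acid genes. CCAAT was held by 10, 6 and 8 of them. A match of letters describes a sequence and does not show that it is bound.

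Cholesterol synthesis enzymes were higher in combination cells nearly throughout. Of 20 listed genes 17 were tested, 16 had a higher mean in combination cells and 11 (64.7%, against 25.3% of all genes) did not overlap, with a median difference of 0.55 against 0.24 over all genes. None passed the adjusted threshold with all 6 libraries, and without combination replicate 1 the test called 15 of the 17 higher, against 21.3% of all genes. FDFT1, squalene synthase, stood at 13.1, 13.8 and 17.8 FPKM in combination cells, against 8.61, 7.996 and 6.88 FPKM in doxorubicin cells, a difference of 0.84 (limma adjusted p = 0.167). It was the member furthest above the median of all genes. HMGCS1, which makes HMG-CoA, stood at 3.36, 2.55 and 4.17 FPKM in combination cells, against 1.93, 1.77 and 1.77 FPKM in doxorubicin cells (difference 0.61). By limma, the thiolase ACAT2 differed by 0.68, the later enzymes SC5D and MSMO1 by 0.64 and 0.60, and squalene epoxidase SQLE by 0.55, all with groups that did not overlap and adjusted p-values of 0.180 to 0.181.

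Sterol sensing and cholesterol uptake genes gave 15 higher means among 15 tested, 9 without overlap (60.0%, against 25.3% of all genes) and a median of 0.49, with INSIG1 called. Fatty acid synthesis and desaturation gave 16 higher means among 17 tested, 11 without overlap (64.7%) and a median of 0.49, with SCD called. FASN, fatty acid synthase, stood at 5.57, 11.1 and 15.2 FPKM in combination cells, against 5.81, 4.14 and 4.35 FPKM in doxorubicin cells. Combination replicate 1 lay inside the doxorubicin range, and the difference was 0.93 (limma adjusted p = 0.181) with it and 1.29 (adjusted p = 2.92e-05) without it. The desaturase FADS1, the acyl-CoA synthetases ACSL3 and ACSL1 and ATP citrate lyase ACLY differed by 0.64, 0.64, 0.58 and 0.59 without overlap. Genes of cholesterol efflux under the sterol receptor LXR, which respond to sterol excess, gave 3 of 9 tested without overlap (33.3%) and a median of 0.31. ABCA1, the exporter among them, stood at 5.61, 3.61 and 4.90 FPKM in combination cells, against 2.99, 2.70 and 2.31 FPKM in doxorubicin cells (difference 0.63). In 17 of 17 alternatives the medians of the cholesterol synthesis, sterol sensing and fatty acid lists stayed above that of all genes, by 0.24 to 0.36, 0.18 to 0.34 and 0.19 to 0.37.

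**Figure D2:**
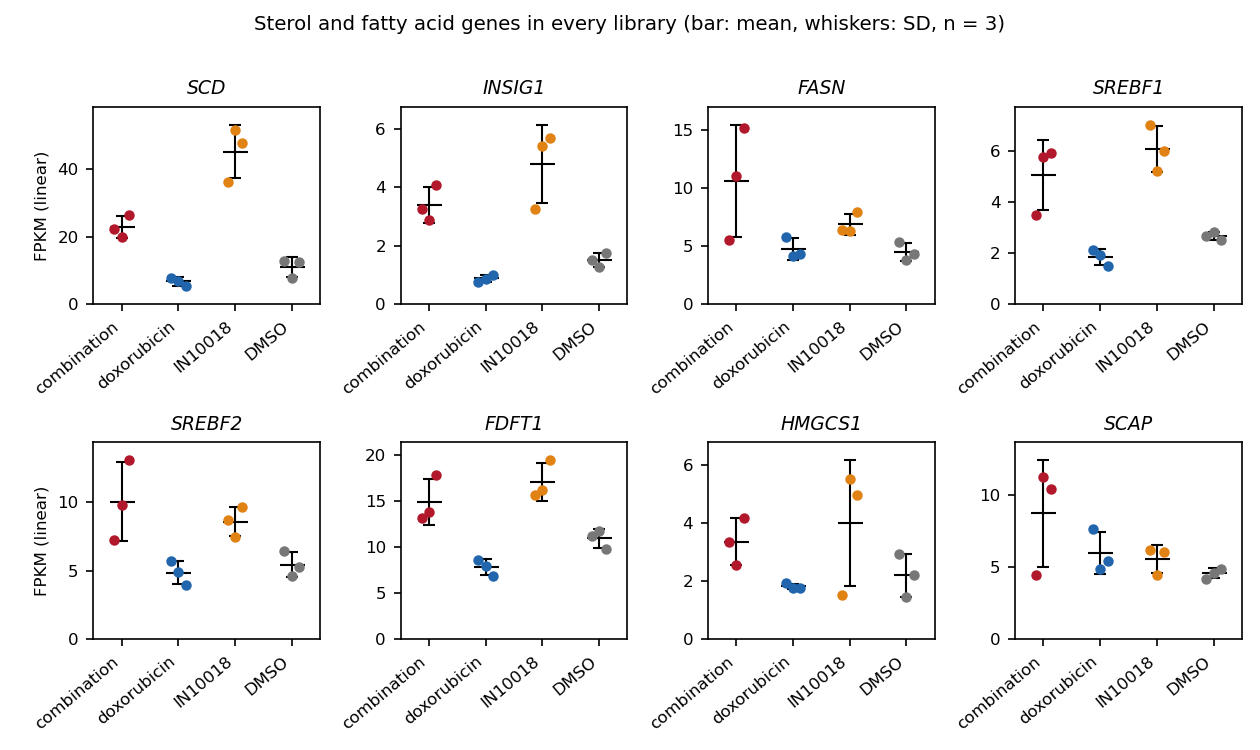
FPKM on linear axes of 8 sterol and fatty acid genes in the 3 libraries of each group, replicates 1 to 3 from left to right, with the mean (bar) and SD (whiskers). SCD, INSIG1 and SREBF1 lie higher in all 3 combination libraries than in all 3 doxorubicin libraries, and the IN10018 libraries lie above the DMSO libraries in the same genes.

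The same genes were read in cells without doxorubicin, in libraries that the comparison above does not use. SCD stood at 36.4, 51.6 and 47.9 FPKM in IN10018 cells, against 12.8, 7.68 and 12.6 FPKM in DMSO cells, and rose by 1.96 on the log2 scale (SE 0.23, limma adjusted p = 0.0076). It was the only gene called between IN10018 and DMSO, 0.00956% of those tested, with 356 genes at an unadjusted p under 0.05. Libraries within these groups were also uneven. Small RNA genes took 16.9% of FPKM in IN10018 replicate 1, against 28.8% and 31.5% in replicates 2 and 3. In DMSO replicate 2 they took 17.3%, against 31.5% and 29.6% in replicates 1 and 3. IN10018 replicate 2 held 8033951 reads. How far this spread limited the number of calls was not tested. INSIG1 stood at 3.25, 5.42 and 5.69 FPKM in IN10018 cells, against 1.52, 1.26 and 1.76 FPKM in DMSO cells, with a difference of 1.18 (limma adjusted p = 0.123). SREBF1, SREBF2 and FDFT1 differed by 0.94, 0.57 and 0.60. Of the cholesterol synthesis enzymes, 17 of 17 had a higher mean in IN10018 cells, 8 (against 3.87% of all genes) did not overlap, and the median difference was 0.52 against 0.00 over all genes. The sterol sensing list gave 4 of 15 without overlap and a median of 0.23, and the fatty acid list 3 of 17 above and 1 below, with a median of 0.16.

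Whether IN10018 acted differently with and without doxorubicin was tested as an interaction in the fit of all 12 libraries. With limma no gene was called (0% of 10457; smallest adjusted p = 0.260), and 633 genes had an unadjusted p under 0.05. For SCD the effect with doxorubicin was 0.32 smaller on the log2 scale, with a 95% interval of the interaction from -1.02 to 0.37, and for INSIG1 the interval was -0.54 to 0.62. These intervals leave room for a difference of either sign, so equal effects were not shown. Interactions here and below include the shift of all genes, which was not subtracted. Its median was 0.24 between combination and doxorubicin and 0.00 between IN10018 and DMSO. SCD stood lower in every combination library than in any IN10018 library, while the doxorubicin and DMSO libraries overlapped.

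Cell cycle genes had medians near the shift of all genes between combination and doxorubicin, and below that of all genes between IN10018 and DMSO. For the 36 genes of DNA replication the median difference was 0.23 between combination and doxorubicin, that of all genes, with 0.14 without combination replicate 3, and -0.42 between IN10018 and DMSO, where 18 (against 3.52% of all genes) lay below DMSO in every library. For 38 genes of mitosis and G2 entry the medians were 0.27 (0.14 without combination replicate 3) and -0.35. After median-ratio scaling the medians between combination and doxorubicin were -0.03 for DNA replication and -0.01 for mitosis and G2 entry. GINS4, a subunit of the replicative helicase, stood at 4.13, 2.91 and 4.87 FPKM in combination cells, against 2.25, 2.41 and 2.27 FPKM in doxorubicin cells. In cells without doxorubicin it stood at 0.907, 1.03 and 1.36 FPKM with IN10018, against 1.97, 1.70 and 2.05 FPKM with DMSO, so that each pair of groups separated but in opposite directions (interaction 1.04, unadjusted p = 0.000697, limma adjusted p = 0.604). MCM2, another helicase subunit, and the mitotic kinases PLK1 and AURKB differed by 0.59, 0.63 and 0.57 between combination and doxorubicin and by -0.18, -0.26 and -0.41 between IN10018 and DMSO. The interactions of all 3 had a limma adjusted p = 0.673.

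**Figure D3:**
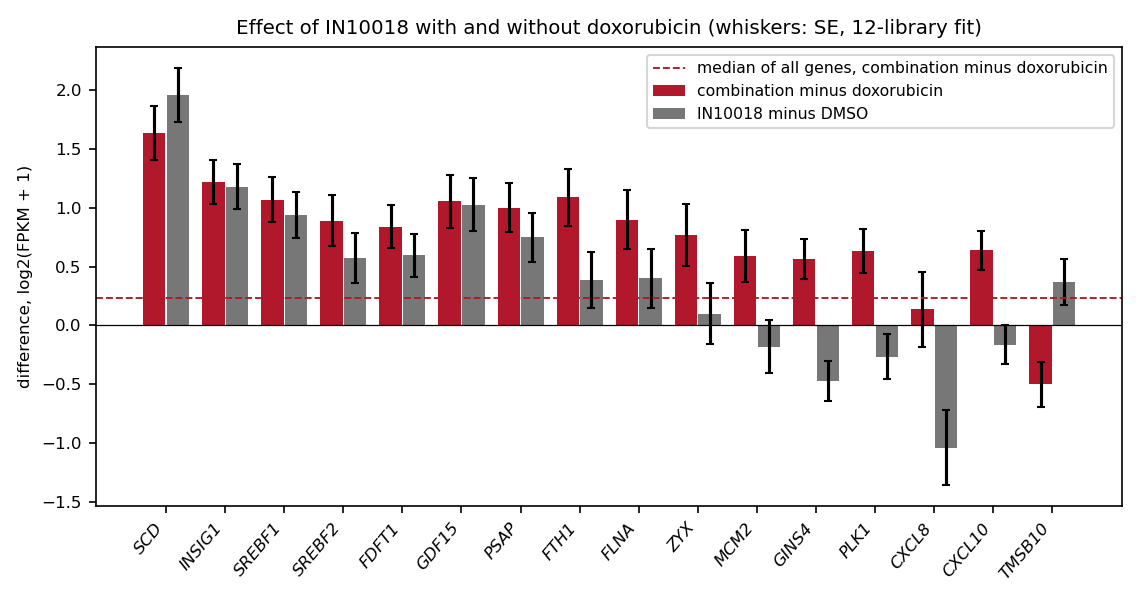
Difference in log2(FPKM + 1) with its SE from the 12-library limma fit, for combination minus doxorubicin (red) and IN10018 minus DMSO (grey), in 16 genes, with the median shift of all genes between combination and doxorubicin (0.24) as a dashed line. SCD, INSIG1, SREBF1, SREBF2, FDFT1, GDF15 and PSAP are above 0 in both comparisons. MCM2, GINS4, PLK1, CXCL8 and CXCL10 are above 0 with doxorubicin and below 0 without it, where CXCL10 was nearly absent.

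Genes of cell adhesion, the structures in which FAK itself acts, stood above the shift of all genes. FAK is recruited to integrins at focal adhesions, where it binds Src and phosphorylates adaptors such as paxillin and p130Cas. Of 26 focal adhesion proteins tested, 26 had a higher mean in combination cells, 13 did not overlap (50%, against 25.3% of all genes), and the median difference was 0.45. None was called with all 6 libraries, and 17 were called higher without combination replicate 1 (65.4%, against 21.3% of all genes). FLNA, filamin A, which crosslinks actin, stood at 52.0, 73.0 and 88.7 FPKM in combination cells, against 39.2, 40.2 and 31.7 FPKM in doxorubicin cells, a difference of 0.90 (SE 0.23, limma adjusted p = 0.180). The alpha-actinins ACTN1 and ACTN4 and the small GTPase RHOB differed by 0.78, 0.76 and 0.80 without overlap. ZYX, zyxin, stood at 13.7, 24.0 and 27.3 FPKM in combination cells, against 14.5, 10.3 and 11.0 FPKM in doxorubicin cells, so that combination replicate 1 alone lay inside the doxorubicin range (difference 0.77, and 1.05 without it).

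The FAK module itself lay closer to the shift. Of 18 genes for FAK, Src and adaptors, 18 had a higher mean in combination cells, 7 did not overlap (38.9%, against 25.3% of all genes), and the median was 0.36. PTK2, which encodes the target of IN10018, stood at 3.38, 2.61 and 3.69 FPKM in combination cells, against 2.66, 2.21 and 2.12 FPKM in doxorubicin cells, with a difference of 0.34 (limma adjusted p = 0.236) and overlapping groups. SRC and BCAR1 (p130Cas) differed by 0.48 and 0.40, and PXN (paxillin, of the focal adhesion list) by 0.46, each with overlap. Combination replicate 1 was the lowest combination library in all 3, and without it the differences of SRC, BCAR1 and PXN were 0.77, 0.90 and 0.64. BCAR1 at 6.06 FPKM there was below every doxorubicin library, against 17.4 and 20.5 FPKM in the other combination libraries. GRB7, an adaptor that binds FAK and ERBB2, differed by 0.65 without overlap.

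Integrins had a median of 0.59 over 9 genes, of which 9 had a higher mean and 5 did not overlap (55.6%, against 25.3% of all genes), and the median was 0.38 without combination replicate 3. ITGA3, integrin α3, stood at 17.6, 32.8 and 34.2 FPKM in combination cells, against 17.1, 16.5 and 14.1 FPKM in doxorubicin cells (difference 0.74, and 1.04 without combination replicate 1). ITGB5 and ITGB1 differed by 0.59 and 0.43. In IN10018 cells against DMSO cells the integrin median was 0.02 and the focal adhesion median 0.13, against 0.00 over all genes. There 1 of 9 integrins and 0 of 26 focal adhesion genes lay above without overlap (against 3.87% of all genes). Below without overlap lay 0 integrins and 1 focal adhesion gene (against 3.52% of all genes). Matrix and matrix remodelling genes had a median of 0.51, with 14 of 32 without overlap (43.8%, against 25.3% of all genes), among them COL5A1 (0.79), a collagen chain, the secreted glycoprotein SPP1 (0.75) and the protease inhibitor TIMP2 (0.67). Without combination replicate 1 the matrix median was 0.63, with 25 of 32 above without overlap (78.1%, against 46.1% of all genes). Without combination replicate 2 it was 0.43 against 0.27 for all genes, with 14 of 32 above (43.8%, against 47.2%). Actin cytoskeleton and SRF target genes were mixed. Their median was 0.36, and 0.24 without combination replicate 3, with 4 of 20 above (20%, against 25.3% of all genes) and 1 below, where MYH9, TPM4 and ACTG1 differed by 0.72, 0.64 and 0.63. TMSB10, thymosin β10, which binds actin monomers, was the one below, with 4455, 6249 and 5253 FPKM in combination cells, against 6991, 7547 and 7837 FPKM in doxorubicin cells (difference -0.50), and it differed by 0.37 between IN10018 and DMSO (interaction unadjusted p = 0.00679, limma adjusted p = 0.673).

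Targets of YAP and TEAD, transcription factors that respond to adhesion and cell shape, did not stand above the shift. Their median was 0.19 over 25 genes, 6 of which did not overlap (24.0%, against 25.3% of all genes). It was 0.31 without combination replicate 2 and 0.06 without combination replicate 3. The classic targets CCN1 and CCN2 differed by 0.19 and -0.10 with overlapping groups, and neither difference kept its sign under every alternative. The factors TEAD3 and TEAD4 differed by 0.59 and 0.50 without overlap. ERBB2, the receptor kinase that this line carries at a high level, stood at 73.0, 91.0 and 113 FPKM in combination cells, against 59.5, 59.9 and 46.1 FPKM in doxorubicin cells (difference 0.72).

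**Figure D4:**
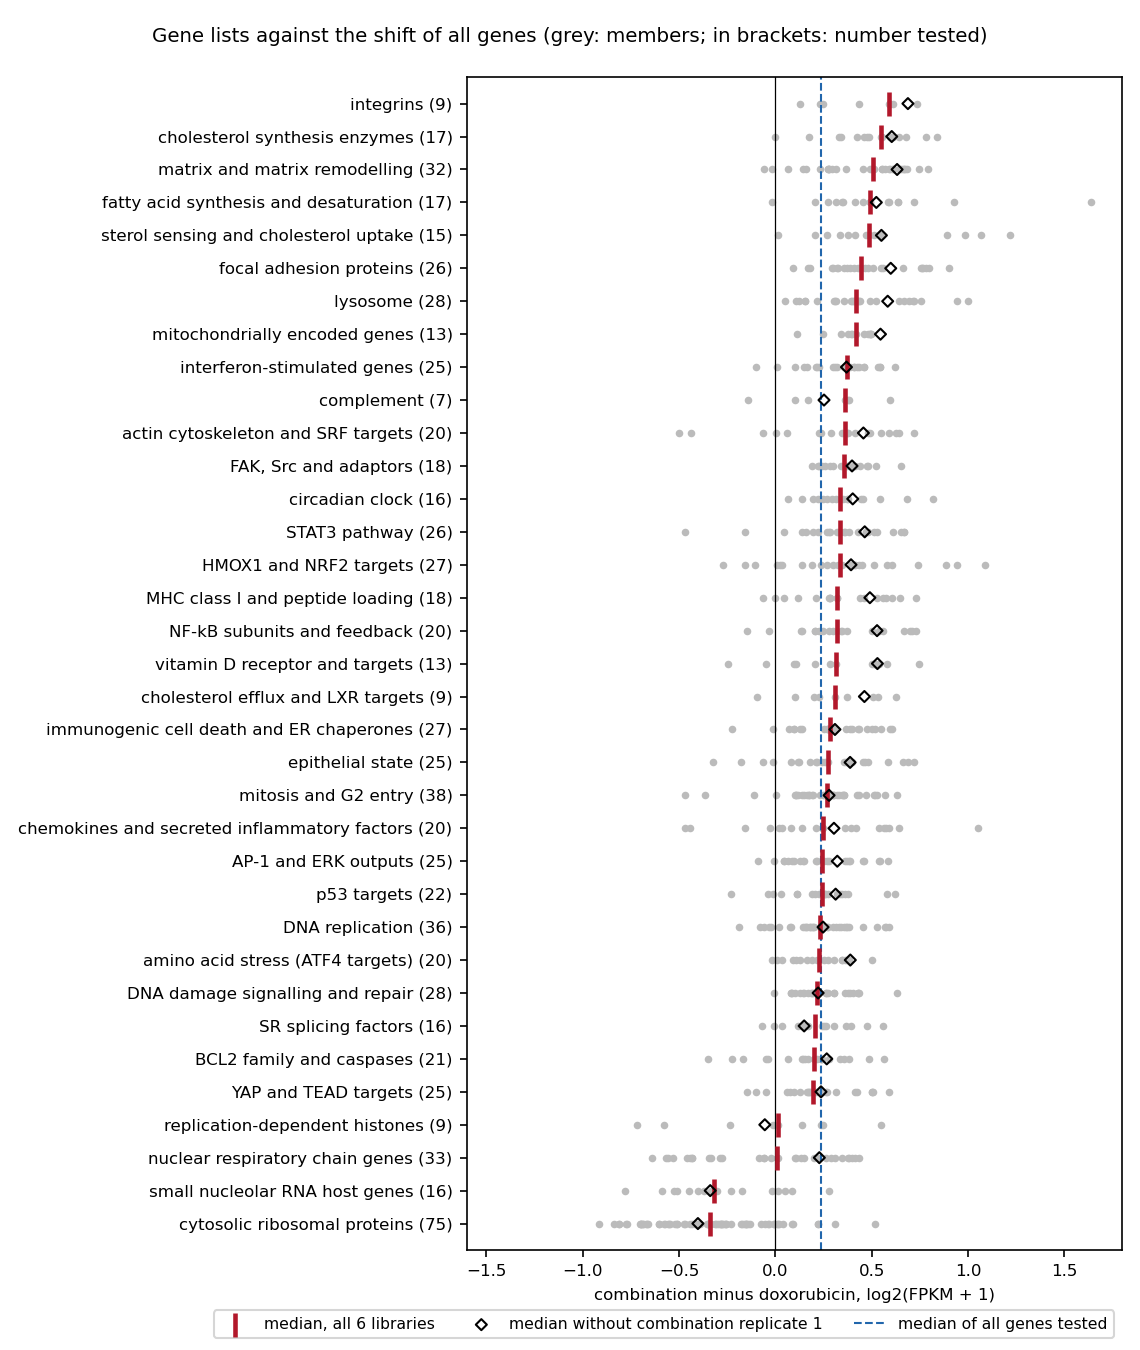
Difference between combination and doxorubicin in log2(FPKM + 1) for the tested members of 35 gene lists (grey points), with the median over all 6 libraries (red bar), the median without combination replicate 1 (diamond) and the median of all genes (dashed line, 0.24). Over all 6 libraries, integrin, cholesterol, matrix and fatty acid genes have the highest medians, and ribosomal protein genes (-0.34) and small nucleolar RNA host genes (-0.32) the lowest.

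Lysosomal genes stood higher together. Lysosomes degrade what the cell takes in or recycles, at an acid pH kept by a proton pump, the V-ATPase. Of 28 genes tested, 28 had a higher mean in combination cells and 14 did not overlap (50%, against 25.3% of all genes), with a median of 0.42. None was called with all 6 libraries, and 17 were called higher without combination replicate 1 (60.7%, against 21.3% of all genes). PSAP, prosaposin, the precursor of activators of sphingolipid breakdown, stood at 149, 199 and 226 FPKM in combination cells, against 106, 96.7 and 80.0 FPKM in doxorubicin cells, a difference of 1.00 (SE 0.22, limma adjusted p = 0.167). The V-ATPase genes ATP6AP1 and ATP6V0D1 and cathepsin A (CTSA) differed by 0.76, 0.72 and 0.71. GRN, progranulin, had 36.2, 85.4 and 79.8 FPKM in combination cells, against 44.7, 34.7 and 36.6 FPKM in doxorubicin cells, so that combination replicate 1 lay inside the doxorubicin range (difference 0.69, and 1.08 without it). Between IN10018 and DMSO 25 of the 28 were higher, with a median of 0.16, and PSAP differed by 0.75. Of the 28, 10 lay above DMSO without overlap (against 3.87% of all genes) and 1 below (against 3.52%).

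FTH1, the ferritin heavy chain that stores iron, stood at 763, 1347 and 1047 FPKM in combination cells, against 550, 421 and 482 FPKM in doxorubicin cells, a difference of 1.09 (SE 0.23, limma adjusted p = 0.161). GDF15, a secreted stress cytokine, stood at 6.31, 10.6 and 7.98 FPKM in combination cells, against 4.23, 3.24 and 2.84 FPKM in doxorubicin cells, a difference of 1.05 (limma adjusted p = 0.149), and it differed by 1.03 between IN10018 and DMSO. The groups did not overlap for either gene. HSPB1, a small heat shock protein, stood at 59.7, 103 and 108 FPKM in combination cells, against 48.7, 36.5 and 42.0 FPKM in doxorubicin cells (difference 1.03). SQSTM1, the autophagy receptor p62, differed by 0.95 and transketolase TKT by 0.74 (1.07 without combination replicate 1). As a group, HMOX1 and targets of NRF2, the factor that answers oxidative stress, had a median of 0.33, with 8 of 27 without overlap (29.6%, near the 25.3% of all genes). Targets of ATF4, the factor of amino acid stress, had a median of 0.23 with 1 of 20 without overlap (5.0%). This median was 0.39 without combination replicate 1, with 7 called higher (35.0%, against 21.3% of all genes), 0.12 without combination replicate 2 and 0.15 without combination replicate 3.

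Other protein-coding genes near the threshold were the adhesion receptor ADGRG1, at 5.67, 7.04 and 8.91 FPKM in combination cells against 3.16, 3.03 and 2.51 FPKM in doxorubicin cells (difference 1.06, limma adjusted p = 0.108), and the tubulin TUBA1A, at 38.7, 48.9 and 52.0 FPKM in combination cells against 23.9, 20.6 and 22.2 FPKM in doxorubicin cells (difference 1.02, adjusted p = 0.135). The carbonic anhydrase CA12 and the autophagy regulator TP53INP2 differed by 0.80 and 0.89, both with a limma adjusted p = 0.108. AKAP14, an anchor of protein kinase A that passed the test, was scarce. It stood at 2.60, 1.72 and 1.59 FPKM in combination cells, against 0.373, 0.513 and 0.347 FPKM in doxorubicin cells, from 24 to 30 reads against 5 to 7 reads, and rose by 1.06 (SE 0.16, limma adjusted p = 0.0498). It was called in 4 of 16 alternatives, and INSIG1 in 7 of 16.

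Genes of immunogenic cell death and of the immune response were examined because the study asked whether FAK inhibition strengthens this form of death. In immunogenic cell death, dying cells expose or release chaperones and nuclear proteins that alert antigen-presenting cells, steps that act on proteins and need no change in RNA. Over 27 such genes and chaperones of the endoplasmic reticulum the median difference was 0.28, with 12 without overlap (44.4%, against 25.3% of all genes) and none called. Without combination replicate 1 the list lay near all genes, with 13 of 27 without overlap (48.1%, against 46.1%) and 6 called higher (22.2%, against 21.3%). Without combination replicate 2 the median was 0.38 against 0.27 for all genes, with 21 of 27 above without overlap (77.8%, against 47.2%). CALR, calreticulin, stood at 45.5, 57.0 and 68.1 FPKM in combination cells, against 38.1, 38.3 and 33.3 FPKM in doxorubicin cells (difference 0.61, limma adjusted p = 0.181). HMGB1, a nuclear protein released from dying cells, stood at 74.4, 74.3 and 80.5 FPKM in combination cells, against 74.3, 66.9 and 73.3 FPKM in doxorubicin cells. Its groups overlapped, and the difference of 0.09 lay below the shift of all genes and turned negative after median-ratio scaling. HSP90AB1, HSPA1A and HSPA5 differed by 0.60, 0.52 and 0.44. Between IN10018 and DMSO, CALR differed by -0.05 and HMGB1 by -0.45.

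Genes of MHC class I and peptide loading had a median of 0.32, with 6 of 18 without overlap (33.3%, against 25.3% of all genes). Without combination replicate 1 the median was 0.49, with 14 of 18 without overlap (77.8%, against 46.1%) and 9 called higher (50%, against 21.3%). Without combination replicate 2 it was 0.33, with 7 of 18 above without overlap (38.9%, against 47.2% of all genes) and 1 below (5.56%, against 7.27%). TAPBP, tapasin, which loads peptides, stood at 13.1, 17.8 and 20.6 FPKM in combination cells, against 10.5, 10.5 and 8.55 FPKM in doxorubicin cells (difference 0.73). TAP1, the peptide transporter, and HLA-C overlapped, with differences of 0.57 and 0.65 that were 0.88 and 0.94 without combination replicate 1. Interferon-stimulated genes had a median of 0.37 with 10 of 25 without overlap (40%, against 25.3% of all genes). IFITM3 stood at 140, 267 and 235 FPKM in combination cells, against 156, 114 and 135 FPKM in doxorubicin cells (difference 0.62, and 0.90 without combination replicate 1). Without combination replicate 1 the interferon median was 0.37 again, and 8 genes were called higher, 32.0% against 21.3% of all genes.

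CXCL10, a chemokine that draws T cells, was low but separated. It stood at 3.71, 1.78 and 2.37 FPKM in combination cells, against 1.34, 1.09 and 1.38 FPKM in doxorubicin cells, from 27 to 43 reads against 15 to 20 reads, a difference of 0.64 (SE 0.19, limma adjusted p = 0.180). In cells without doxorubicin it was nearly absent, at 0.0701, 0 and 0 FPKM with IN10018, against 0.137, 0.225 and 0.0792 FPKM with DMSO. CXCL8, the neutrophil chemokine IL-8, was the most abundant of this list, at 679, 582 and 1130 FPKM in combination cells, against 713, 754 and 624 FPKM in doxorubicin cells. Its groups overlapped with a difference of 0.14, whereas without doxorubicin it stood at 10.7, 13.6 and 29.1 FPKM with IN10018, against 33.7, 32.5 and 37.6 FPKM with DMSO, a difference of -1.04 (interaction 1.18, unadjusted p = 0.0202, limma adjusted p = 0.673). The cytokines IL1A and IL11 were the list's members below without overlap, by -0.44 and -0.47, and CSF1, the macrophage growth factor, differed by 0.59. Over 20 chemokines and secreted inflammatory factors 4 lay above (20%, against 25.3% of all genes) and 2 below (10%, against 3.22%), with a median of 0.25. CXCL10 and IL11 differed by 0.43 and -0.22 without combination replicate 1.

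NF-κB subunits and feedback genes had a median of 0.32 with 7 of 20 without overlap (35.0%, against 25.3% of all genes). Without combination replicate 1 the median was 0.53 against 0.26 for all genes, with 16 of 20 without overlap (80.0%, against 46.1%) and 11 called higher (55.0%, against 21.3%). Without combination replicate 2 it was 0.35 against 0.27 for all genes, with 9 of 20 above without overlap (45%, against 47.2%). TNIP1, an inhibitor of the pathway, stood at 7.87, 12.7 and 13.3 FPKM in combination cells, against 6.28, 6.21 and 6.20 FPKM in doxorubicin cells (difference 0.73). NFKB1 differed by 0.50 without overlap and NFKB2 by 0.70 with overlap (1.07 without combination replicate 1). STAT3 stood at 12.1, 10.6 and 15.3 FPKM in combination cells, against 8.16, 8.04 and 7.42 FPKM in doxorubicin cells (difference 0.61). The 26 genes of its pathway had a median of 0.33, with 9 above (34.6%) and 1 below. Without combination replicate 1 the pathway median was 0.46, with 12 called higher (46.2%, against 21.3% of all genes). Without combination replicate 2 it was 0.36, with 13 above without overlap (50%, against 47.2% of all genes) and 1 below. Complement genes gave 1 above (14.3%, against 25.3% of all genes) and 1 below (14.3%, against 3.22%) among 7. Their median was 0.36, and 0.19 without combination replicate 3. Without combination replicate 1 it was 0.25 against 0.26 for all genes, and with a filter of 5 FPKM 0.17 against 0.22. C3, the central component, differed by 0.59.

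Genes of the DNA damage response, which doxorubicin itself engages, had medians near that of all genes. Targets of p53, DNA damage signalling and repair, and the BCL2 family and caspases had medians of 0.24, 0.22 and 0.20, with 6 of 22 (27.3%), 5 of 28 (17.9%) and 6 of 21 (28.6%) without overlap, against 25.3% of all genes. The DNA damage median was 0.35 without combination replicate 2. CDKN1A, the cell cycle inhibitor p21, stood at 12.2, 26.9 and 26.9 FPKM in combination cells, against 21.1, 13.8 and 19.6 FPKM in doxorubicin cells. The groups overlapped, and the difference of 0.20 was 0.56 without combination replicate 1 (limma adjusted p = 0.0303) and turned negative after median-ratio scaling, after quantile normalization and when GC content and length were corrected for. GADD45A, a damage-induced growth arrest gene, and TNFRSF10B, a death receptor, differed by 0.58 and 0.62 without overlap. Early genes of AP-1 and ERK signalling had a median of 0.24 (0.09 without combination replicate 3), and SR splicing factors one of 0.21. Medians of 0.34, 0.31 and 0.27 were found for the circadian clock, vitamin D receptor targets and genes of the epithelial state. The vitamin D median was 0.53 without combination replicate 1, with 8 of 13 called higher (61.5%, against 21.3% of all genes). Without combination replicate 2 it was 0.23 against 0.27 for all genes, with 7 of 13 above without overlap (53.8%, against 47.2%). In the clock list BHLHE40 and NR1D1, both transcriptional repressors, differed by 0.82 and 0.68 without overlap.

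Ribosomal protein genes stood lower in combination cells. Of 75 cytosolic ribosomal protein genes 65 had a lower mean in combination cells and 18 (24.0%, against 3.22% of all genes) lay below without overlap, with a median of -0.34. Without combination replicate 1 the median was -0.40 and 35 were called lower (46.7%, against 3.31% of all genes), and after quantile normalization the median was -0.17. RPS12 stood at 4369, 4438 and 3509 FPKM in combination cells, against 6127, 7358 and 8133 FPKM in doxorubicin cells, a difference of -0.81 (SE 0.18, limma adjusted p = 0.162). RPS21 differed by -0.78. RPS28, with the lowest difference of the list (-0.92), overlapped, at 39.8, 118 and 55.0 FPKM in combination cells and 102, 123 and 141 FPKM in doxorubicin cells, and differed by -0.58 without combination replicate 1. These genes have many processed pseudogenes of near-identical sequence, between which reads may have been split. Transcript length moved with this result, as the bin of the shortest transcripts had a median of -0.01, and its part in it was tested only by correcting for length and GC content, which gave a ribosomal median of -0.54 with all genes at 0.01.

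Small nucleolar RNA host genes had a median of -0.32, with 4 of 16 below (25.0%, against 3.22% of all genes) and 0 above (against 25.3%), among them GAS5, a noncoding host, at 562, 400 and 365 FPKM in combination cells, against 649, 797 and 809 FPKM in doxorubicin cells (difference -0.78). The respiratory chain split by genome. The 13 mitochondrially encoded genes had a median of 0.42 with 8 above without overlap (61.5%, against 25.3% of all genes), and MT-CO1 stood at 2220, 2933 and 3357 FPKM in combination cells, against 2157, 2031 and 1774 FPKM in doxorubicin cells. MT-ND1 differed by 0.49 with overlap. The 33 nuclear genes of the chain had a median of 0.01 with 5 above (15.2%) and 4 below (12.1%, against 3.22% of all genes), where the small subunits NDUFA2, COX5B and UQCRQ differed by -0.64, -0.57 and -0.53. The nuclear median was 0.23 without combination replicate 1 and -0.15 without combination replicate 2. Replication-dependent histones, of which 10 of 32 listed symbols matched the data and 9 were tested, had a median of 0.01, and of -0.12 to 0.20 when 1 library was left out. H3C7 and H4C1, histone genes that are not among the matched members, differed by -1.07 and -0.94, with limma adjusted p-values of 0.149 and 0.162. They rested on 20 to 30 and 10 to 15 reads in combination cells, against 40 to 71 and 25 to 31 reads in doxorubicin cells. Replication-dependent histone transcripts lack a poly(A) tail, so their level also depends on how RNA was selected.

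CST1 and LYZ had the largest negative differences of the protein-coding genes. CST1, cystatin SN, a secreted protease inhibitor, stood at 3.02, 0.445 and 0.533 FPKM in combination cells, against 3.91, 19.7 and 12.9 FPKM in doxorubicin cells, a difference of -2.43 (SE 0.50, limma adjusted p = 0.157). LYZ, lysozyme, stood at 1.72, 0.308 and 0.220 FPKM in combination cells, against 3.22, 12.7 and 7.37 FPKM in doxorubicin cells, a difference of -2.27 (SE 0.40, limma adjusted p = 0.108). In both genes the combination libraries lay below the doxorubicin libraries, with a wide spread inside each group. They rested on 5 to 30 reads per library in combination cells and 39 to 262 reads in doxorubicin cells. In cells without doxorubicin the IN10018 libraries were higher on average, by 0.86 for CST1 and 0.94 for LYZ, and the interactions of -3.30 and -3.21 had limma adjusted p = 0.665 and 0.443. S100P, a calcium-binding protein, differed by -0.97, COPS9, a subunit of the COP9 signalosome, by -0.84, TMEM256 by -0.85, and TSACC, a cochaperone, by -0.80 (limma adjusted p = 0.142).

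**Figure D5:**
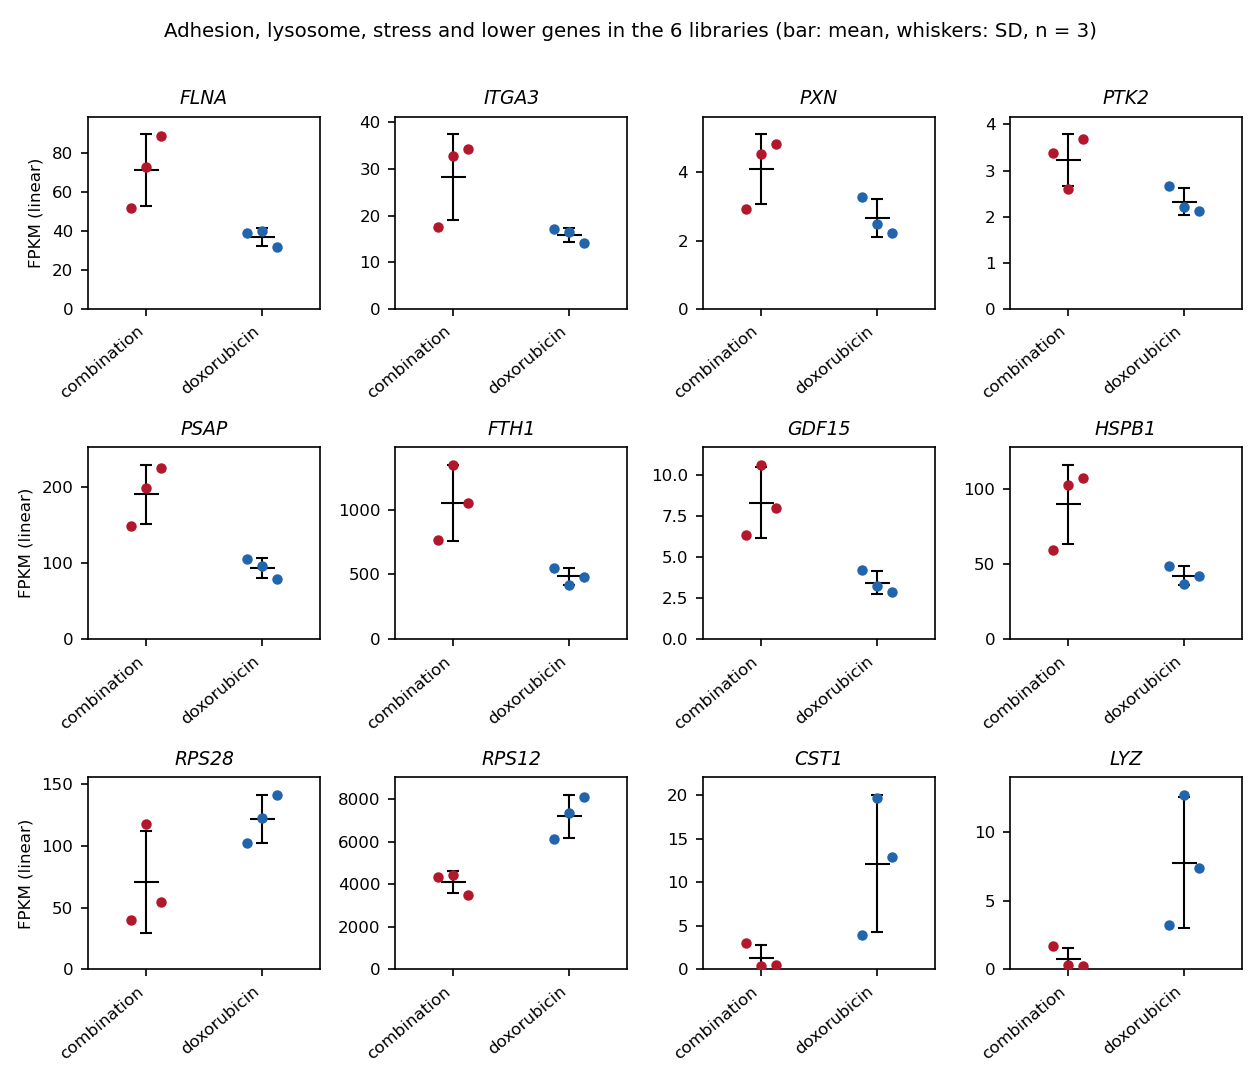
FPKM on linear axes of 12 genes of adhesion, lysosome and stress and of genes that stood lower, in the 3 combination and the 3 doxorubicin libraries, replicates 1 to 3 from left to right, with the mean (bar) and SD (whiskers, not drawn below 0). PSAP, FTH1, GDF15, HSPB1 and FLNA lie above doxorubicin in all 3 combination libraries, CST1 and LYZ below it, and PXN, PTK2 and RPS28 overlap.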

How the data were processed

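RNA-seq was read from SK-OV-3 libraries in 4 groups of 3. According to the paper's methods and the submitters' processing notes, RNA was extracted with RNAiso Plus, libraries were made with a strand-specific NEBNext Ultra Directional kit, and reads were aligned with TopHat and quantified with Cufflinks and Cuffdiff on hg38. No tool version or gene annotation is named in these sources. The deposited values are FPKM per gene, which the authors computed without pooling replicates. FPKM are relative to the total of each library, so a large class can move all others.

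Values of the 1325 rows that share one of 93 symbols were summed, which left 59391 symbols, and a gene was tested where 3 or more of the 6 libraries reached 1 FPKM, also in the other contrasts. log2(FPKM + 1) values were fitted with limma 3.58.1 (trended empirical Bayes, R 4.3.3), with Benjamini-Hochberg adjustment over all 10457 genes. A fit of all 12 libraries gave IN10018 minus DMSO and the interaction, since these contrasts need all groups. Whole reads were recovered from the FPKM of 24090 of 24090 genes above 0 in at least 3 libraries, within a relative tolerance of 1e-11, and were used for depth and for limma-voom. Other pseudocounts, filters, scalings, a replicate block, leaving out each library and, chosen after the data were seen, a correction for GC content and length were tried. The steps were tested on simulated data.

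The genes and 35 lists were chosen with earlier results of these data known. Named genes are those past the threshold, the 12 with the smallest p and the 12 largest protein-coding changes in each direction, up to 6 members per list furthest from the median of all genes, and defining pathway genes. Small RNA genes and pseudogenes are counted and not named. Motifs were searched in RefSeq promoter windows of 250 bases. Some genes are not reported here.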

Additional observations from a re-analysis of the deposited data

How the results depend on the processing

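Between combination and doxorubicin, the count of 8 genes became 0 with no filter on low values (29271 genes tested), 0 with a filter of 5 FPKM (4672 tested), 0 after median-ratio scaling, 1 after quantile normalization, 28 after scaling to protein-coding genes, 4 in the fit of all 12 libraries and 1 (SCD) with the correction for GC content and length, which was chosen after seeing the data. Leaving out 1 library gave 0 to 2578. With the replicate number as a block it was 69. Same-numbered combination and doxorubicin libraries did not deviate together (correlations across genes of -0.146, -0.306 and -0.139). Deviations of combination replicates 1 and 2 followed GC content (-0.653 and 0.626), so these correlations cannot decide whether the numbers pair libraries. Between IN10018 and DMSO the count of 1 became 5 with no filter, 2 after median-ratio scaling, 4 after quantile normalization, 0 with the replicate block, and 0 to 2 when 1 library was left out. The interaction count of 0 became 1 with a pseudocount of 0.1, 1 after median-ratio scaling, 1 after quantile normalization, and 0 to 2 when 1 library was left out. The cause of these moves was not tested. Of 1708 values for 102 genes, 1555 kept direction and side of the threshold, 28 lost the call, 113 gained it and 12 changed sign. The sign changes were CCN1 at -0.10 (median-ratio) and -0.029 (quantile), HMGB1 at -0.21 (median-ratio) and -0.15 (GC content and length), CXCL8 at -0.17 (median-ratio) and -0.0087 (GC content and length), and CDKN1A at -0.087 (median-ratio), -0.015 (quantile) and -0.046 (GC content and length). Leaving out 1 library gave -0.30 to 0.038 for CCN2 and -0.14 to 0.33 for CXCL8. Genes with few reads per library, such as AKAP14 and CXCL10, are limited by depth.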

Other observations

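Gene classes outside the lists moved differently from the protein-coding genes. Of 9056 protein-coding genes tested, 7927 had a higher mean in combination cells, with a median difference of 0.26. Of 127 small RNA genes 59 did, with a median of -0.04, and of 544 pseudogenes 234 did, with a median of -0.10. Among pseudogenes 75 (13.8%) lay below doxorubicin in every library, against 3.22% of all genes.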
